A study of Mus musculus with 12 samples.

Results

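TGF-β signaling is restrained by proteins, some of which the pathway itself induces. In cultured mouse cardiac fibroblasts, 9 genes for such restraining proteins were examined. They were selected by gene symbol for their known function and comprised the inhibitory Smads Smad7 and Smad6, the corepressors Ski, Skil and Tgif1, the E3 ubiquitin ligases Smurf1 and Smurf2, and the receptor- or membrane-level inhibitors Pmepa1 and Bambi. All 9 were found under these symbols among the 35275 genes of the deposited count table. RNA-Seq had been performed on fibroblasts from the hearts of 12-week-old C57BL/6 mice with a floxed Smad7 gene (loxP sites flank its promoter region and exon 1), and cells were used at passage 2. By this description, all 12 libraries came from cells carrying the floxed allele and an adenovirus. The sample titles call the control cells wild type. Smad7 was deleted by infection with an adenovirus expressing Cre for 48 hours at a multiplicity of infection of 100 (Smad7-KO), and control cells received an adenovirus that the sample labels describe as expressing GFP and the study's methods as empty. The 4 conditions, with 3 libraries each, were unstimulated control, TGF-β1-stimulated control, unstimulated Smad7-KO and TGF-β1-stimulated Smad7-KO fibroblasts. TGF-β1 was given at 10 ng/ml, for 2 hours according to one label field and 4 hours according to another. Cre from the virus can act in any infected cell and is not restricted to fibroblasts.

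In the canonical pathway, TGF-β binds a type II receptor that activates the type I receptor Tgfbr1, which phosphorylates Smad2 and Smad3, and these enter the nucleus with Smad4 to control transcription. Smad7 competes for the type I receptor and brings Smurf ligases to it, whereas Smad6 acts mainly on BMP receptors and Smad1/5. Ski, Skil (SnoN) and Tgif1 bind activated Smad complexes at DNA and recruit corepressors, Pmepa1 sequesters receptor-activated Smads, and Bambi is a pseudoreceptor without a kinase domain. Several of these genes are known Smad targets, so that their transcripts serve as a readout of signaling as well as of its restraint.

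The promoter sequences of Ski, Tgif1 and Smad6 are shown because these genes represent the different responses described below: Ski and Tgif1 rose with TGF-β1 in both genotypes, and Smad6 was lower in every Smad7-KO library. RefSeq promoters of assembly GRCm38.p6, each reaching from 250 bases before to 50 bases after a transcript start, were searched for 5 of the 9 genes (9 promoters, of which 5 belong to Tgif1). The motifs, searched on both strands, were the AP-1 motif TGANTCA, the palindromic Smad site GTCTAGAC, the Smad box CAGAC, which reads GTCTG on the opposite strand, and the GC-rich Smad motif GGCGCC. None of these motifs contains another. Capitals mark matches, and the letters stop where the deposited gene interval begins.
Ski, chr4:155222593-155222785, minus strand: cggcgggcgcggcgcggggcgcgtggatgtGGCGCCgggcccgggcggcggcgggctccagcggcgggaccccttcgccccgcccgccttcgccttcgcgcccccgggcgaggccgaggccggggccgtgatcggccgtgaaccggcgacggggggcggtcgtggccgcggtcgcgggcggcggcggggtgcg
Tgif1, chr17:70853547-70853782, minus strand: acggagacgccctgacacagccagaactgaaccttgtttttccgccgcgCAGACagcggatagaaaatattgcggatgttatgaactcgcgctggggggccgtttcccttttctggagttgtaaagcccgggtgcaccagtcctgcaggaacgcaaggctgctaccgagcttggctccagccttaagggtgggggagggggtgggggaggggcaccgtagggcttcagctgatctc
Smad6, chr9:64022060-64022309, minus strand: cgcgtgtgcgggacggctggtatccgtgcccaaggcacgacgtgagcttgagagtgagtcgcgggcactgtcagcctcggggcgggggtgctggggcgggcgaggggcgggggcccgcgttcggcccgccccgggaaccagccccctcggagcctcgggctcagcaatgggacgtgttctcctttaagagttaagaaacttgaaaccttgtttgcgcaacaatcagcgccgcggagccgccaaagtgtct
Over the 250 bases before the start, Ski held 1 GGCGCC, the outermost Tgif1 promoter 1 CAGAC, and Smad6 none of the 4 motifs. The other Tgif1 promoters, by rising coordinate, held 0, 1, 0 and 2 CAGAC matches and no GGCGCC. The Smurf1 promoter held 2 CAGAC matches, and that of Smurf2 held 1 CAGAC and 2 GGCGCC matches. No promoter of these genes held GTCTAGAC or TGANTCA. Among all 32851 promoters, CAGAC was present in 42.2%, GGCGCC in 9.59%, TGANTCA in 6.75% and GTCTAGAC in 0.167%. A match is a description of the letters and not a binding site.

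Total counts ranged from 19056916 to 25371321 per library, and 15150 genes, including all 9, passed the filter on low counts. Levels are given as TMM-normalised CPM (read counts scaled to library size), and differences as log2 fold changes with standard errors from edgeR's quasi-likelihood test fitted to all 12 libraries; a gene with a Benjamini-Hochberg adjusted p of 0.05 or less over the 15150 genes is called differentially expressed. No label or method states that the 3 libraries of a condition came from separate cultures or animals beyond calling them independent, so the tests measure the spread between these libraries. The fit gave each gene a single spread shared by the 4 conditions. Within conditions the spread was widest in unstimulated control libraries (biological coefficient of variation 0.335) and 0.137, 0.053 and 0.0998 in TGF-β1-stimulated control, unstimulated Smad7-KO and TGF-β1-stimulated Smad7-KO libraries. The shared spread can therefore be too narrow for unstimulated control and too wide for Smad7-KO libraries, and adjusted p values carry this limit. Unstimulated control library 2 stood apart. Its longest 5050 tested genes lay 0.992 below its shortest 5050 on the log2 scale relative to the mean of all libraries, against 0.38 below in TGF-β1-stimulated control library 2, 0.357 below in unstimulated control library 1 and between 0.122 below and 0.352 above in the other 9. The 9 genes are mostly long, with 49.1% of tested genes shorter than Smad6, 52.8% shorter than Tgif1 and between 72.7% and 91.7% shorter than each of the others.

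Smad7, the inhibitory Smad that the Cre virus targeted, was measured first as a check of the labels. Smad7 (ENSMUSG00000025880) lies on chromosome 18 from 75367529 to 75395935 on the plus strand of GRCm38. It was at 71.4, 74.6 and 77.2 CPM in unstimulated control libraries and at 28.6, 28.4 and 31.1 CPM in unstimulated Smad7-KO libraries. With TGF-β1, control libraries had 145, 150.3 and 142 CPM, and Smad7-KO libraries had 80.8, 69.99 and 79.5 CPM. Under the same stimulation the genotypes did not overlap, Smad7-KO being the lower, and stimulated Smad7-KO libraries overlapped unstimulated control libraries. The log2 fold change between Smad7-KO and control was -1.34 ± 0.0938 (SE) without TGF-β1 (adjusted p = 9.02e-06, edgeR) and -0.92 ± 0.0921 with it (adjusted p = 0.000115, edgeR), so that 39.5% and 52.7% of the control level remained. The deleted stretch is the promoter region and exon 1, while the counts cover the whole gene. In these bulk libraries fewer cells of a type and less RNA per cell cannot be told apart, for Smad7 and for every gene below. Transcripts from cells that escaped recombination and reads from the remaining exons cannot be told apart in these counts.

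TGF-β1 increased Smad7 in both genotypes. The log2 fold change was 0.97 ± 0.0922 in control (1.96-fold, adjusted p = 4.94e-05) and 1.39 ± 0.0939 in Smad7-KO fibroblasts (2.61-fold, adjusted p = 3.19e-06, edgeR). The mean level increased by 71.3 CPM in control and by 47.4 CPM in Smad7-KO libraries. The residual Smad7 transcript rose by the larger factor but the smaller amount. The difference between the log2 fold changes was 0.42 ± 0.13 (95% interval 0.13 to 0.70) and did not pass the test over all genes (unadjusted p = 0.00788, adjusted p = 0.98, edgeR).

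Smad6 was the gene of the set with the largest decrease in Smad7-KO fibroblasts. Smad6 (ENSMUSG00000036867), on chromosome 9 from 63953076 to 64022059, encodes the inhibitory Smad of the BMP branch. It was at 144, 103 and 142 CPM in unstimulated control libraries, the lowest value being that of library 2, and at 31.6, 29.2 and 30.9 CPM in unstimulated Smad7-KO libraries. With TGF-β1 the control values were 159.6, 188 and 169.9 CPM, and the Smad7-KO values were 73.9, 64.8 and 74.6 CPM. No Smad7-KO library reached any control library, stimulated or not. Between genotypes the log2 fold change was -2.08 ± 0.138 in unstimulated (4.23-fold lower, adjusted p = 6.9e-06) and -1.28 ± 0.134 in TGF-β1-stimulated cells (2.43-fold lower, adjusted p = 0.000185, edgeR). Without unstimulated control library 2 and TGF-β1-stimulated control library 2 these values were -2.23 and -1.20. Endothelial marker genes moved with Smad6 between genotypes, their summed level being 267 to 324 CPM in control and 20.5 to 25.5 CPM in Smad7-KO libraries, and their part in this difference was not tested.

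Smad6 rose with TGF-β1 in Smad7-KO fibroblasts, and its response in control fibroblasts passed the test under some alternatives only. In Smad7-KO fibroblasts Smad6 rose 2.33-fold (log2 fold change 1.22 ± 0.135, adjusted p = 0.000119), whereas in control fibroblasts the log2 fold change was 0.42 ± 0.132 (1.33-fold, adjusted p = 0.0829, edgeR), although all 3 stimulated control libraries were above all 3 unstimulated ones. The control response was called with DESeq2 on all libraries (0.40, adjusted p = 0.0402), with the length trend removed (0.40, adjusted p = 0.028) and without unstimulated control library 3 (0.49, adjusted p = 0.0302). It was 0.27 without unstimulated control library 2 (adjusted p = 0.0995) and 0.21 without both control libraries numbered 2 (adjusted p = 0.235). The difference between the log2 fold changes was 0.80 ± 0.188 (95% interval 0.39 to 1.21, unadjusted p = 0.00121, adjusted p = 0.872, edgeR). It passed the test in edgeR without unstimulated control library 2 (0.96, adjusted p = 0.0303), without that library and TGF-β1-stimulated control library 2 (1.02, adjusted p = 0.0241) and in DESeq2 on all libraries (0.82, adjusted p = 0.0488). The adjusted p over all alternatives ranged from 0.0241 to 1.

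**Figure D1:**
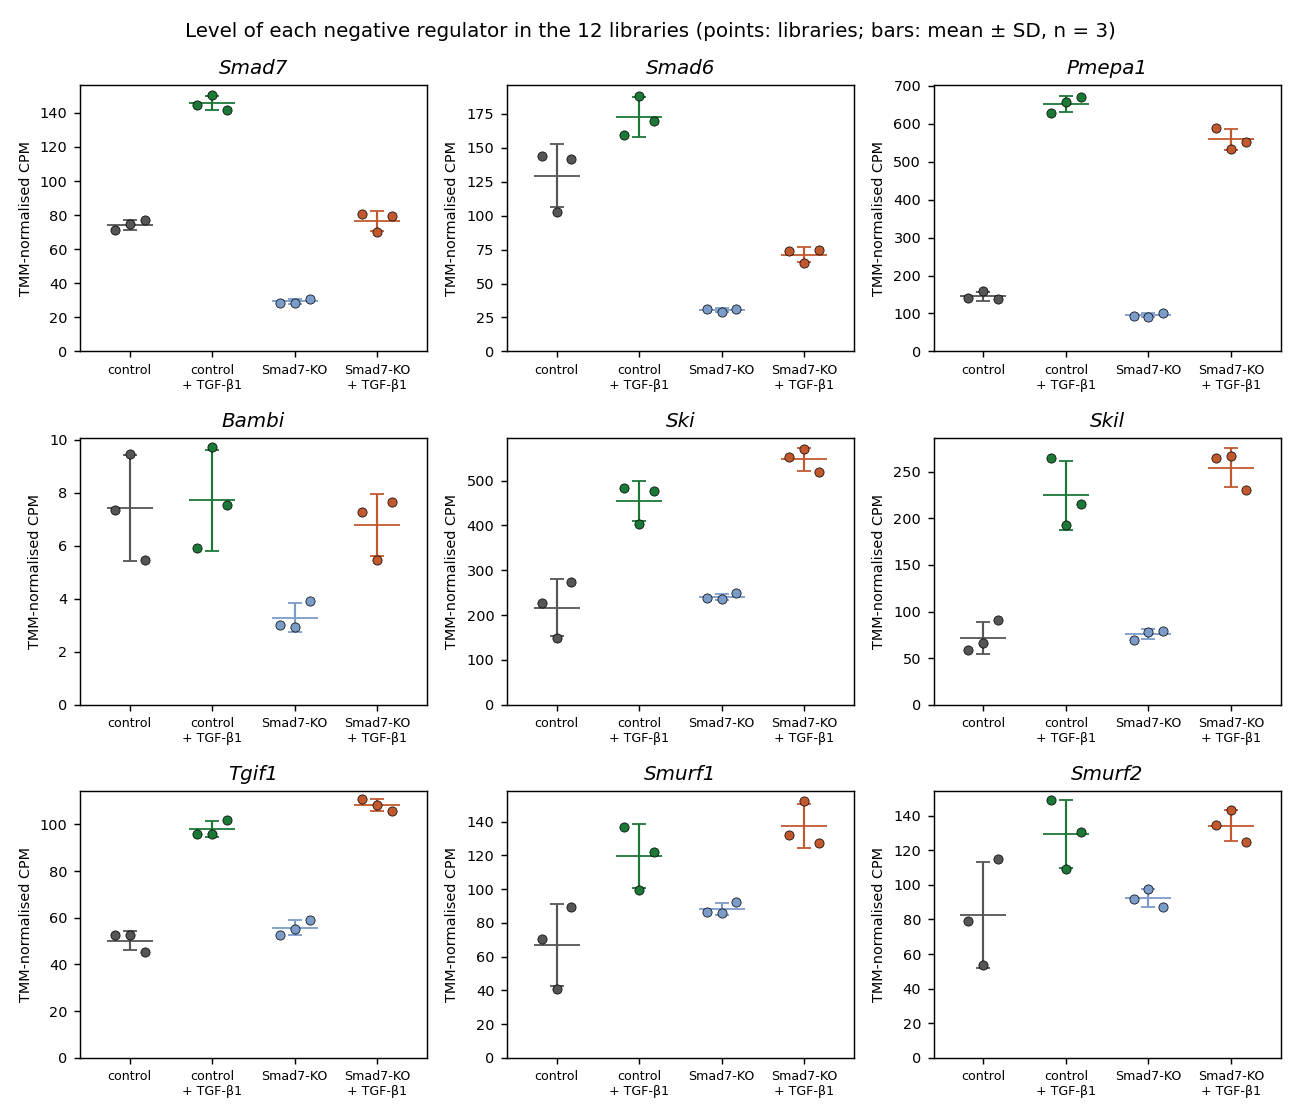
TMM-normalised CPM of the 9 negative regulators (y axes, each from 0) in the 4 conditions (x axes), with points for libraries and bars for the mean ± SD of 3 libraries. Smad7 and Smad6 lie lower in Smad7-KO than in control under the same stimulation, Pmepa1 reaches 534 to 670.1 CPM in the stimulated libraries, and the unstimulated control libraries of Ski, Smurf1 and Smurf2 scatter widely.

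Pmepa1 was the most strongly induced of the 9 genes. Pmepa1 (ENSMUSG00000038400, chromosome 2 from 173224458 to 173276533) encodes a membrane-anchored protein that withholds Smad2 and Smad3 from the receptor. It was at 140.4, 158 and 137 CPM in unstimulated control libraries and at 628, 656 and 670.1 CPM with TGF-β1. Smad7-KO libraries had 93.0, 91.0 and 101 CPM without and 589.6, 534 and 552 CPM with TGF-β1. The stimulated libraries did not overlap the unstimulated ones in either genotype. With TGF-β1 the log2 fold change was 2.16 ± 0.099 in control (4.48-fold, adjusted p = 5.33e-07) and 2.56 ± 0.101 in Smad7-KO fibroblasts (5.88-fold, adjusted p = 6.72e-08, edgeR), and Pmepa1 had the second smallest p of 15150 genes in each comparison. Unstimulated Smad7-KO fibroblasts had less Pmepa1 than unstimulated control fibroblasts, with a log2 fold change of -0.61 ± 0.0956 (adjusted p = 0.00166, edgeR). With TGF-β1 the genotypes differed by -0.22 ± 0.0948 (95% interval -0.43 to -0.01, adjusted p = 0.148), which did not pass the test in edgeR but did in limma on log2(FPKM + 1) (-0.26, adjusted p = 0.0448). The difference between the TGF-β1 responses was 0.39 ± 0.134 (unadjusted p = 0.0133, adjusted p = 0.98, edgeR).

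Bambi, the pseudoreceptor, was by far the least abundant of the genes, and its values rest on 61 to 239 counts per library. Bambi (ENSMUSG00000024232) lies on chromosome 18 from 3507957 to 3516404. It was at 7.35, 9.49 and 5.48 CPM in unstimulated control and at 5.90, 9.72 and 7.53 CPM in TGF-β1-stimulated control libraries. Smad7-KO libraries had 3.02, 2.92 and 3.90 CPM without and 7.26, 5.47 and 7.64 CPM with TGF-β1. The unstimulated Smad7-KO libraries lay below all others, and the remaining conditions overlapped one another. Bambi differed by a log2 fold change of -1.17 ± 0.251 between the genotypes without TGF-β1 (adjusted p = 0.00864) and by 1.05 ± 0.251 with TGF-β1 in Smad7-KO fibroblasts (adjusted p = 0.0194, edgeR). In control fibroblasts it was 0.06 ± 0.24 (95% interval -0.47 to 0.58, adjusted p = 0.921). The increase in Smad7-KO cells was no longer called without unstimulated Smad7-KO library 1 or 2 or stimulated Smad7-KO library 1 or 3 (adjusted p between 0.0738 and 0.089). The decrease in unstimulated Smad7-KO cells was not called by edgeR on only the 6 libraries compared (adjusted p = 0.0545).

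The corepressors Ski, Skil and Tgif1 rose with TGF-β1 in both genotypes and did not pass the test between genotypes. Ski (ENSMUSG00000029050, chromosome 4 from 155154075 to 155222592) was at 226, 148 and 274 CPM in unstimulated and 484, 402 and 478 CPM in stimulated control libraries. Its Smad7-KO values were 239, 236 and 249 CPM without and 553, 571 and 519 CPM with TGF-β1. Stimulated and unstimulated libraries did not overlap, and unstimulated control library 2 was the lowest of the 12. Its log2 fold change with TGF-β1 was 1.07 ± 0.181 in control (2.11-fold, adjusted p = 0.00286) and 1.18 ± 0.182 in Smad7-KO fibroblasts (2.27-fold, adjusted p = 0.00121, edgeR). Fitted on only the 6 control libraries, edgeR gave the same log2 fold change of 1.07 with an adjusted p of 0.0835.

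Skil, the paralog of Ski that encodes SnoN, had the larger factor. Skil (ENSMUSG00000027660) lies on chromosome 3 from 31095058 to 31122577. It was at 58.4, 65.9 and 91.0 CPM in unstimulated control libraries and at 265, 193 and 216 CPM with TGF-β1. In Smad7-KO libraries it went from 69.4, 77.8 and 79.3 CPM to 265, 268 and 230.1 CPM. The ranges of the genotypes overlapped both with and without TGF-β1. Skil rose by a log2 fold change of 1.65 ± 0.171 in control (3.13-fold, adjusted p = 9.47e-05) and of 1.75 ± 0.171 in Smad7-KO fibroblasts (3.37-fold, adjusted p = 4.91e-05, edgeR).

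Tgif1, a homeodomain corepressor, had the smallest standard errors of the corepressors. Tgif1 (ENSMUSG00000047407) lies on chromosome 17 from 70844205 to 70853546. It was at 52.8, 52.4 and 45.5 CPM in unstimulated control and 96.0, 95.9 and 102 CPM in stimulated control libraries. In Smad7-KO libraries it was at 52.8, 55.1 and 59.2 CPM without and 111, 108 and 106 CPM with TGF-β1. Its increase with TGF-β1 was 0.96 ± 0.0939 on the log2 scale in control (adjusted p = 5.93e-05) and 0.96 ± 0.0937 in Smad7-KO fibroblasts (adjusted p = 4.65e-05, edgeR), which is a 1.95-fold increase in each. The difference between these responses was 0.00 with a 95% interval from -0.29 to 0.28 on the log2 scale. Stimulated Smad7-KO libraries lay just above stimulated control libraries without overlap, and that difference, 0.15 ± 0.0926, did not pass the test (adjusted p = 0.311).

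Between genotypes, Ski differed by 0.16 ± 0.18 without (95% interval -0.23 to 0.55) and 0.27 ± 0.179 with TGF-β1 (-0.12 to 0.66) on the log2 scale. Skil differed by 0.07 ± 0.167 (-0.29 to 0.44) and 0.18 ± 0.166 (-0.18 to 0.54). These directions were not stable in unstimulated cells. With each library's trend on gene length removed, the unstimulated difference was -0.13 for Ski (adjusted p = 0.212) and -0.35 for Skil (adjusted p = 0.0408), whereas Tgif1, a shorter gene, went from 0.15 to 0.14. Stimulated Smad7-KO libraries lay above stimulated control libraries without overlap for Ski, and this was called by DESeq2 on only those 6 libraries (0.28, adjusted p = 0.031) and by edgeR without unstimulated control library 2 (0.29, adjusted p = 0.0453).

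The Smurf ligases, which Smad7 brings to the receptor for ubiquitination, had positive log2 fold changes with TGF-β1 in both genotypes, 1 of which passed the test. Smurf1 (ENSMUSG00000038780, chromosome 5 from 144876495 to 144965847) was at 70.6, 41.0 and 89.2 CPM in unstimulated and 137, 99.5 and 122 CPM in stimulated control libraries. The Smad7-KO values were 86.5, 85.8 and 92.7 CPM without and 132, 153 and 128 CPM with TGF-β1. Stimulated libraries lay above unstimulated ones without overlap in both genotypes. The log2 fold change was 0.84 ± 0.226 in control (1.79-fold, adjusted p = 0.0414) and 0.64 ± 0.225 in Smad7-KO fibroblasts (1.56-fold, adjusted p = 0.111, edgeR). Smurf1 in control passed in 10 of 24 alternatives, and without any one of 9 libraries it did not (adjusted p between 0.0579 and 0.159): unstimulated control library 1, stimulated control library 1 or 3, or any of the 6 Smad7-KO libraries. Its control response was 0.58 without unstimulated control library 2 (adjusted p = 0.0214) and 1.10 without unstimulated control library 3 (adjusted p = 0.00327). In Smad7-KO fibroblasts it passed in edgeR and DESeq2 on only the 6 Smad7-KO libraries (0.65 in each, adjusted p = 9.75e-06 and 4.8e-13), without unstimulated control library 2 or 3 (adjusted p = 0.00351 and 0.0296) and with the length trend removed (0.67, adjusted p = 0.000845). On only the 6 control libraries the control response did not pass in either tool (adjusted p = 0.268 and 0.0985).

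Smurf2 (ENSMUSG00000018363, chromosome 11 from 106820066 to 106920715) resembled Smurf1. It was at 78.8, 53.7 and 115 CPM in unstimulated and 149, 109 and 130.3 CPM in stimulated control libraries, which overlapped. Smad7-KO libraries had 92.1, 97.7 and 87.2 CPM without and 135, 143 and 125 CPM with TGF-β1, without overlap. On the log2 scale it differed by 0.65 ± 0.219 in control (adjusted p = 0.103) and 0.54 ± 0.218 in Smad7-KO fibroblasts (adjusted p = 0.177, edgeR), neither of which passed. With the length trend removed both did, at 0.58 (adjusted p = 0.00181) and 0.57 (adjusted p = 0.0016), as did the control response without unstimulated control library 3 (0.97, adjusted p = 0.00217) and the Smad7-KO response without unstimulated control library 2 (0.55, adjusted p = 0.0185) or 3 (0.54, adjusted p = 0.0268). The Smad7-KO response of Smurf2 also passed in edgeR and DESeq2 on only the 6 Smad7-KO libraries (0.55 in each, adjusted p = 2.97e-05 and 2.31e-10), and its control response was 0.42 without unstimulated control library 2 (adjusted p = 0.137). Between genotypes, neither ligase passed the test, at 0.40 ± 0.225 and 0.20 ± 0.224 for Smurf1 and 0.16 ± 0.218 and 0.05 ± 0.218 for Smurf2 without and with TGF-β1. Without unstimulated control library 3 the unstimulated differences were 0.66 for Smurf1 (adjusted p = 0.0157) and 0.48 for Smurf2 (adjusted p = 0.0286), and without unstimulated control library 2 they were 0.15 (adjusted p = 0.486) and -0.067 (adjusted p = 0.792).

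**Figure D2:**
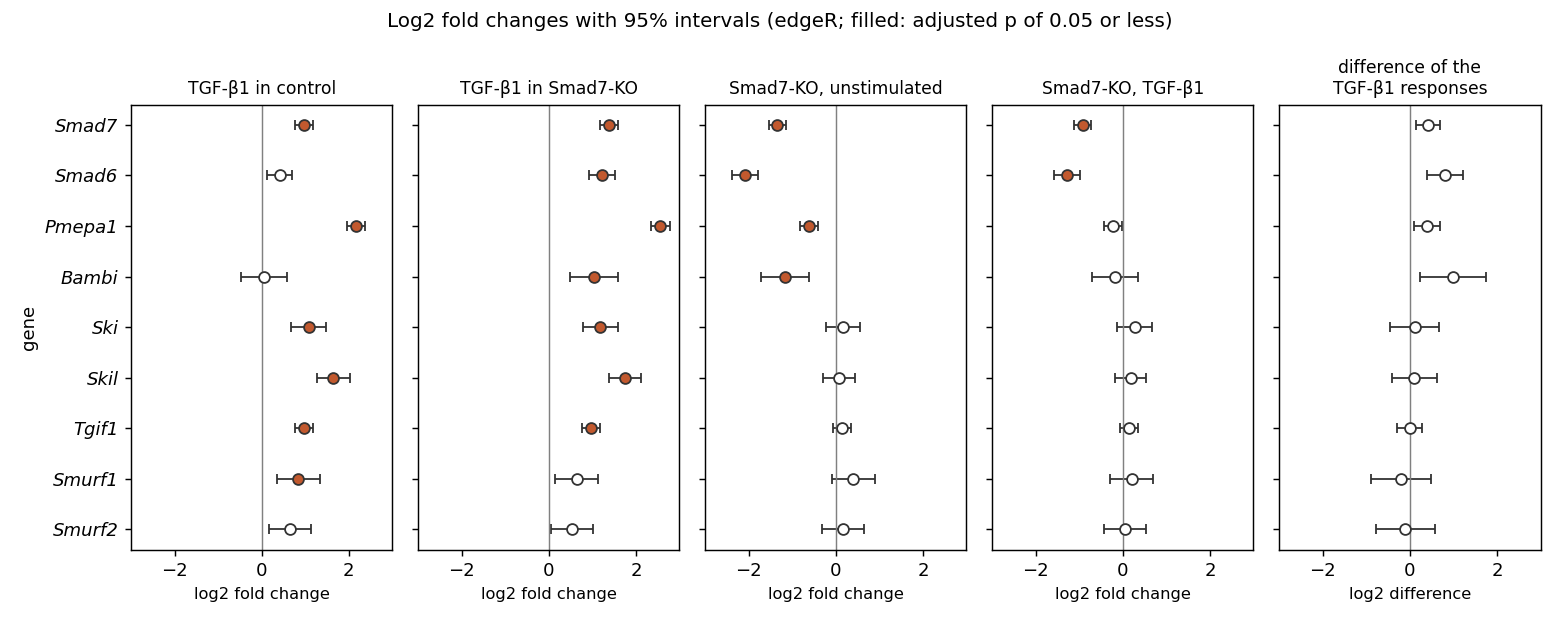
Log2 fold changes (x axes) of the 9 genes (y axis) in the 4 comparisons and the difference of the TGF-β1 responses, Smad7-KO minus control, with 95% intervals from edgeR. Filled points have an adjusted p of 0.05 or less: 6 genes with TGF-β1 in control, 7 with TGF-β1 in Smad7-KO, 4 and 2 between genotypes, and 0 for the difference of responses.

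Counted over the set, TGF-β1 increased 6 of the 9 genes in control fibroblasts (Pmepa1, Skil, Ski, Smad7, Tgif1 and Smurf1) and decreased none, where 8.37% of all tested genes were called and 5.04% were called higher. The median log2 fold change of the 9 genes was 0.96, against -0.03 over all tested genes. In Smad7-KO fibroblasts TGF-β1 increased 7 of 9 (the same genes without Smurf1, plus Smad6 and Bambi), where 10.2% of tested genes were called and 5.33% higher, with a median of 1.18 against -0.01. The count was 6 and 9 without the control libraries numbered 2. Fitted on only the compared libraries, it was 4 and 9 in edgeR and 5 and 9 in DESeq2. Smurf1 was then called in Smad7-KO and not in control. Of all tested genes, 391 and 3792 were called in that edgeR fit, and 865 and 3413 in that DESeq2 fit. Stimulated libraries lay above unstimulated ones without overlap for 7 of 9 genes in control, where 19.8% of tested genes did not overlap and 10.9% lay higher. In Smad7-KO fibroblasts this was 9 of 9, where 39.0% did not overlap and 19% lay higher.

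Between genotypes the calls were all decreases. In unstimulated cells 4 of 9 genes (Smad6, Smad7, Bambi and Pmepa1) were lower in Smad7-KO fibroblasts, where 25.8% of tested genes were called and 13.7% lower. The median log2 fold change of the 9 genes was 0.07, against -0.02 over all genes. In stimulated cells 2 of 9 (Smad6 and Smad7) were lower, where 13% were called and 7.23% lower, and the median was 0.05 against -0.02. In unstimulated cells 4 of 9 lay lower without overlap, where 41.3% of tested genes did not overlap and 19.2% lay lower. In stimulated cells 5 did not overlap (44.9% of tested genes), of which Smad7, Smad6 and Pmepa1 lay lower (23.0%) and Ski and Tgif1 higher (21.9%). Both counts of calls were the same without the control libraries numbered 2. In stimulated cells 44.1% of all called genes were higher in Smad7-KO with edgeR, and 30% with limma on log2(FPKM + 1) without a filter, but Smad6 and Smad7 were called lower under every alternative. Since Smad7 was the deleted gene, its own decrease is the check of the deletion and not an independent member of these counts.

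The difference between the TGF-β1 responses of the genotypes was called for 0 of the 9 genes with edgeR, where 0.0198% of tested genes were called (3 of 15150). At an unadjusted p under 0.05 there were 4 of 9 (Smad6, Smad7, Pmepa1 and Bambi), against 392 of 15150 genes (2.59%). With DESeq2 on all libraries 1 of the 9 was called, Smad6, and with limma on log2(FPKM + 1) 0. The 4 genes are those that were lower in unstimulated Smad7-KO fibroblasts, and the same unstimulated Smad7-KO libraries enter both comparisons. The differences were 0.11 ± 0.254 for Ski, 0.11 ± 0.235 for Skil, -0.20 ± 0.317 for Smurf1 and -0.11 ± 0.308 for Smurf2, with 95% intervals reaching from -0.45 to 0.66, from -0.41 to 0.62, from -0.89 to 0.50 and from -0.78 to 0.57.

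Levels between genes were compared per length, in the deposited FPKM (fragments per kilobase of gene, scaled to the library total). In unstimulated control libraries the mean levels ran from Smad6 (43.6 ± 10.3 FPKM, SD, n = 3), Ski (39.3 ± 13.7) and Pmepa1 (31.7 ± 0.29) through Smad7 (17.3 ± 1.42), Tgif1 (15.8 ± 1.14), Smurf2 (15.7 ± 6.68), Smurf1 (12.46 ± 5.16) and Skil (10.7 ± 2.99) to Bambi (1.45 ± 0.299). The ranges of Smad6, Ski and Pmepa1 overlapped, as did each neighboring pair from Smad7 to Skil. In TGF-β1-stimulated control libraries Pmepa1 led with 145.4 ± 4.28 FPKM, followed by Ski (83.4 ± 8.74), Smad6 (58.8 ± 4.65), Smad7 (34.5 ± 0.911), Skil (33.9 ± 5.73), Tgif1 (31.5 ± 1.1), Smurf2 (24.8 ± 3.91), Smurf1 (22.4 ± 3.65) and Bambi (1.55 ± 0.377). There, Skil overlapped its neighbors Smad7 and Tgif1, and Smurf2 overlapped Smurf1. By its mean Smad6 held the first place in unstimulated control libraries, although Pmepa1 was higher in library 2 and Ski in library 3, and the seventh in both Smad7-KO conditions, at 10.4 ± 0.428 FPKM without and 23.5 ± 1.89 FPKM with TGF-β1.

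In unstimulated Smad7-KO libraries Ski led with 44.0 ± 1.21 FPKM, above Pmepa1 (21.1 ± 1.15), Tgif1 (17.9 ± 1.02), Smurf2 (17.6 ± 0.995), Smurf1 (16.4 ± 0.699), Skil (11.3 ± 0.786), Smad6, Smad7 (6.92 ± 0.347) and Bambi (0.657 ± 0.108). Tgif1, Smurf2 and Smurf1 overlapped, as did Skil and Smad6. With TGF-β1 the order was Pmepa1 (121 ± 6.74), Ski (97.5 ± 4.56), Skil (37.2 ± 3.08), Tgif1 (33.9 ± 0.87), Smurf2 (24.96 ± 1.63), Smurf1 (24.9 ± 2.32), Smad6, Smad7 (17.7 ± 1.42) and Bambi (1.33 ± 0.23). Skil and Tgif1 overlapped, and Smurf2, Smurf1 and Smad6 did too. Bambi was the lowest in every condition.

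**Figure D3:**
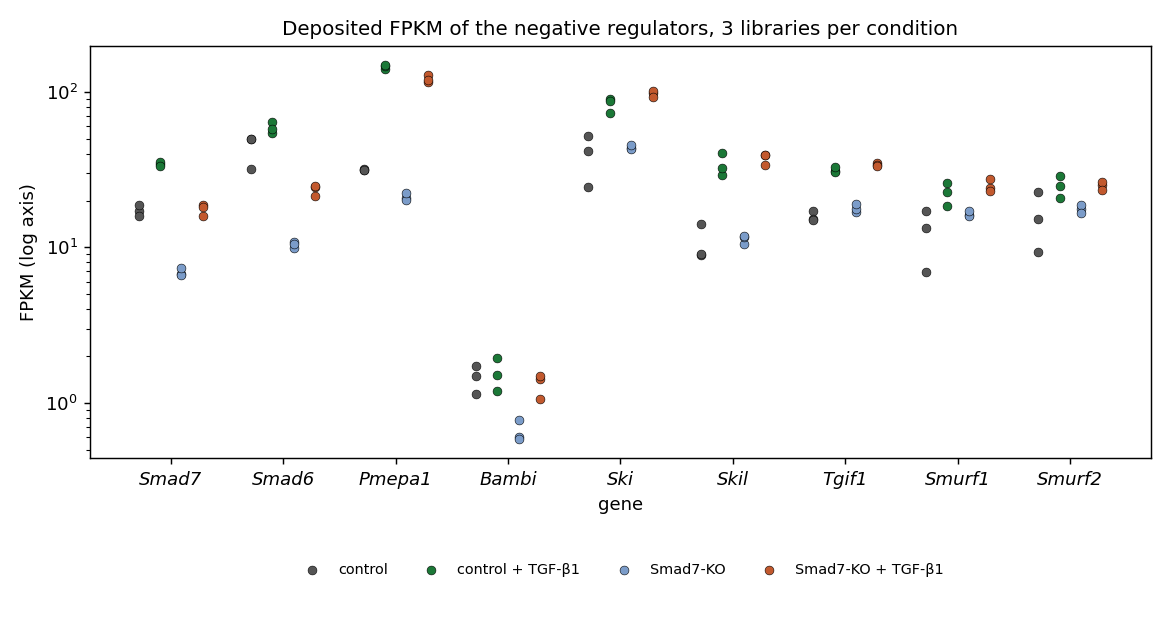
Deposited FPKM (y axis, log scale) of the 9 genes (x axis) in each library, colored by condition. Bambi lies below 2 FPKM throughout, and Pmepa1 covers the widest range, from 20.2 to 149.5 FPKM.

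Genes known to be induced by TGF-β were measured as a check of the stimulation. Of 10 such genes, 6 rose in control fibroblasts, among them Ccn2, Il11, Junb, Ltbp2 and Snai1, and 7 in Smad7-KO fibroblasts, where Postn rose as well, and none fell. Ccn2, the matricellular protein CTGF, had log2 fold changes of 1.80 ± 0.206 and 2.27 ± 0.209 (adjusted p = 0.00018 and 3.54e-05, edgeR). The collagen gene Col1a1 and the fibronectin gene Fn1 were not called. In unstimulated Smad7-KO fibroblasts 5 of the 10 were lower than in control, among them Acta2, Ccn2, Ltbp2 and Snai1, and with TGF-β1 2 were, among them Ccn2 (-1.04 ± 0.202). Of all tested genes, 5.04% and 5.33% were called higher with TGF-β1 in control and Smad7-KO fibroblasts. Between genotypes, 13.7% and 7.23% were called lower without and with TGF-β1. The medians of the 10 were 0.88 and 1.32 with TGF-β1 in control and Smad7-KO fibroblasts, and -0.48 and -0.36 between genotypes without and with it.

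The counts of called genes in the lists below stand against 8.37% and 10.2% of all tested genes with TGF-β1 in control and Smad7-KO fibroblasts, and 25.8% and 13% between genotypes without and with it. Among 19 other regulators that act outside the cell or at the receptor, 5 rose and 2 fell with TGF-β1 in control fibroblasts, and 4 rose and 2 fell in Smad7-KO fibroblasts. Ldlrad4, a relative of Pmepa1 that also binds Smads, rose by log2 fold changes of 1.84 ± 0.276 and 1.86 ± 0.273 (adjusted p = 0.00125 and 0.000925). Spsb1, which directs the type II receptor to degradation, rose by 1.52 ± 0.102 and 1.96 ± 0.103 (adjusted p = 4.74e-06 and 4.85e-07, edgeR). The activin antagonists Fst and Fstl3 rose in both genotypes too, Fst by 0.93 ± 0.129 and 1.31 ± 0.132. Sik1, a kinase that aids receptor turnover with Smad7, fell by 1.06 on the log2 scale in control (adjusted p = 0.00024) and by 0.85 in Smad7-KO fibroblasts (adjusted p = 0.000922), and the endocytic adaptor Dab2 fell as well (-1.42 ± 0.175 and -1.19 ± 0.174). Regulators of this list thus moved in opposite directions in the same libraries.

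In Smad7-KO against control, 2 of these 19 regulators were higher and 8 lower in unstimulated cells, and 1 was higher and 4 were lower with TGF-β1. Fst had the lowest log2 fold change, at 35.2 to 49.0 CPM in unstimulated control and 13.3 to 16.3 CPM in unstimulated Smad7-KO libraries (-1.47 ± 0.133, adjusted p = 5.06e-05). With TGF-β1 the Fst ranges were 75.8 to 83.7 and 35.7 to 40.1 CPM (-1.09 ± 0.129, adjusted p = 0.000465, edgeR). The immunophilin gene Fkbp1a, whose product binds the type I receptor, was lower in both (-0.90 ± 0.208 and -0.70 ± 0.207), and the proteoglycan gene Dcn, whose product binds TGF-β, was higher in both (0.28 ± 0.0959 and 0.36 ± 0.0959). Ldlrad4, Spsb1, Sik1 and Dab2 were not called between genotypes.

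Of 12 genes for partners with which Ski, Skil and Tgif1 repress transcription, 11 were tested, and TGF-β1 changed none of them in either genotype with edgeR. Sin3a was called higher in unstimulated Smad7-KO cells (0.59 ± 0.198, adjusted p = 0.0484, edgeR), where DESeq2 called 1 gene of the list and limma 0, and none with TGF-β1. With TGF-β1, 1 of the 11 had an unadjusted p under 0.05 in each genotype, and DESeq2 and limma called 0. Between stimulated genotypes 1 had an unadjusted p under 0.05, and DESeq2 called 1 and limma 0. Of 18 other ubiquitin ligases, deubiquitinases and Smad phosphatases, 1 changed with TGF-β1 in control, Ctdspl (-0.73 ± 0.114, adjusted p = 0.0016), and 3 in Smad7-KO fibroblasts, Ctdspl (-0.79 ± 0.115), Ctdsp2 (-0.59 ± 0.0993) and Wwp1 (-1.05 ± 0.215), all lower. The first 2 encode phosphatases that act on Smads, and Wwp1 encodes a ligase of the Smurf family. In control fibroblasts Ctdsp2 and Wwp1 also had negative log2 fold changes, -0.34 ± 0.0991 and -0.74 ± 0.215. They did not pass the test there (adjusted p = 0.0572 and 0.058, edgeR). The difference between the responses of the genotypes was not called for either gene (adjusted p = 0.98 for each, edgeR). Wwp1 was at 184 to 380 CPM in unstimulated control and 504.5 to 540.5 CPM in unstimulated Smad7-KO libraries (0.92 ± 0.215, adjusted p = 0.0131, edgeR). Rnf111, the ligase Arkadia that degrades Smad7 and Skil protein, was also higher there (0.54 ± 0.152, adjusted p = 0.0271), and Stub1 was lower (-0.78 ± 0.22, adjusted p = 0.0281).

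Among 13 ligands, receptors and signaling Smads, edgeR called 1 gene with TGF-β1 in each genotype, the type I receptor gene Tgfbr1, and limma called 1 and DESeq2 3 genes of the list in each. Tgfbr1 was at 122 to 246 CPM in unstimulated and 331 to 460.2 CPM in stimulated control libraries (1.15 ± 0.211, adjusted p = 0.00482), and at 275 to 284 and 566 to 649.8 CPM in Smad7-KO libraries (1.13 ± 0.21, adjusted p = 0.00447, edgeR). In unstimulated Smad7-KO fibroblasts Tgfbr1 was higher than in control (0.64 ± 0.209, adjusted p = 0.0445), and Eng, Tgfb2, Tgfb3, Acvrl1 and Smad9 were lower. Eng, the coreceptor endoglin, fell by 0.97 on the log2 scale (adjusted p = 2.91e-05, edgeR), and the BMP-branch Smad gene Smad9 by 1.41 (adjusted p = 0.00276). Between stimulated genotypes 5 of the 13 were called, where 13% of all tested genes were. Tgfb1 was higher (0.40 ± 0.108, adjusted p = 0.0314, edgeR), and Eng, Tgfb2, Acvrl1 and Smad9 were lower. Tgfbr1 was not called there (0.63 ± 0.2085, adjusted p = 0.0703, edgeR). Smad2, Smad3 and Smad4, the transducers of TGF-β, were not called in any comparison with edgeR. Smad3 had log2 fold changes with TGF-β1 of -0.42 ± 0.18 in control and -0.59 ± 0.18 in Smad7-KO fibroblasts (adjusted p = 0.209 and 0.0637, edgeR). In Smad7-KO libraries it was at 58.3 to 62.7 CPM without and 37.1 to 42.8 CPM with TGF-β1.

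Genes known to respond to BMP were listed because Smad6 restrains, and is induced by, that branch. In unstimulated Smad7-KO fibroblasts 6 of 8 were lower than in control and none higher, where 25.8% of all tested genes were called and 13.7% lower, with a median log2 fold change of -1.07. Id1, an inhibitor of basic helix-loop-helix factors, was at 48.6 to 152 CPM in control and 10.7 to 11.5 CPM in Smad7-KO libraries (-3.07 ± 0.356, adjusted p = 0.000314), and its relative Id3 at 143 to 367 and 42.5 to 49.5 CPM (-2.39 ± 0.284, adjusted p = 0.000355, edgeR). With TGF-β1 3 of 8 were lower in Smad7-KO (Atoh8, Id3 and Msx1). With TGF-β1, Id3 fell by 1.24 in control (adjusted p = 0.0142) and had a log2 fold change of 0.10 ± 0.273 in Smad7-KO fibroblasts, and Id2 had one of 0.49 ± 0.175 in control and rose by 1.66 ± 0.179 in Smad7-KO fibroblasts (adjusted p = 9.76e-05). The differences between the responses of the genotypes did not pass the test in edgeR for Id1 (2.08 ± 0.473, adjusted p = 0.803), Id2 (1.17 ± 0.248, adjusted p = 0.786) or Id3 (1.34 ± 0.385, adjusted p = 0.98). At an unadjusted p under 0.05 there were 3 of the 8 genes, and DESeq2 called 2 and limma 0.

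**Figure D4:**
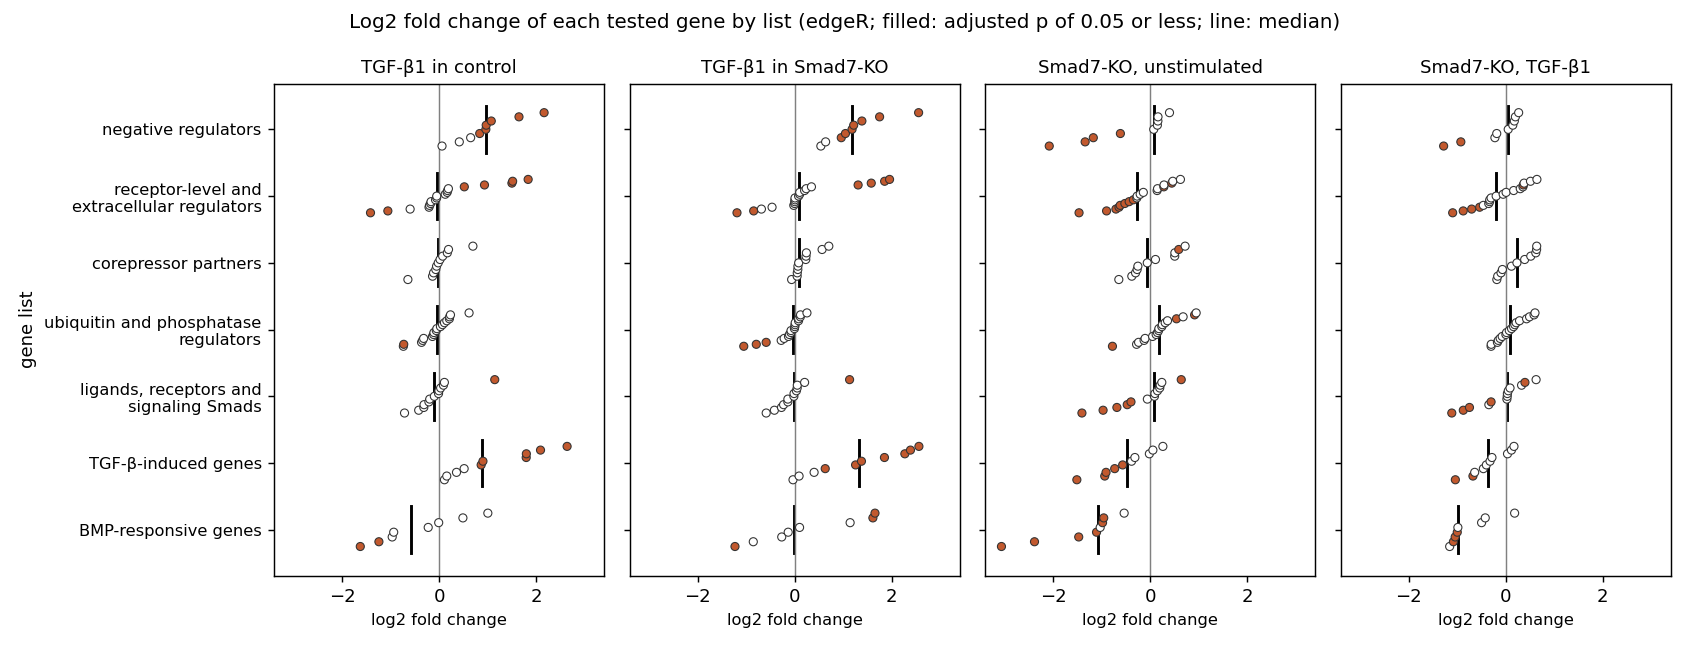
Log2 fold changes (x axes) of each tested gene of the 9 negative regulators and 6 pathway lists (y axis) in the 4 comparisons, with a line at each list's median and filled points for genes that passed the test in edgeR. The negative regulators and the TGF-β-induced genes lie mostly above 0 with TGF-β1, and the BMP-responsive genes mostly below 0 between genotypes.

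Markers of the labelled and of other cell types were measured beside these results. All 8 fibroblast markers were detected, with sums of 3540 to 5583 CPM over the 12 libraries, but Thy1 and Tcf21 were lower in Smad7-KO fibroblasts in both states (Thy1, -1.55 ± 0.116 and -1.34 ± 0.115). The 10 endothelial markers summed to 267 to 324 and 272 to 317 CPM in unstimulated and stimulated control libraries, and to 23.3 to 25.5 and 20.5 to 22.6 CPM in Smad7-KO libraries, where 4 and 2 of the 10 were under 1 CPM throughout. Of 9 tested, 7 were lower in both Smad7-KO comparisons and none higher, Pecam1 by 4.33 and 4.23 on the log2 scale, and Cldn5 was under 1 CPM in every library. Smad6, Bambi, Eng and Id1 lay in the same direction as these markers between genotypes, and the part of the markers' cells in these results was not tested. The rise of Smad6 and Bambi with TGF-β1 within Smad7-KO fibroblasts is a separate comparison, and the part of these cells in it was not tested either.

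All 8 macrophage markers were detected, and Lyz2 alone had means of 12410, 9689, 14320 and 12810 CPM in the 4 conditions in the order below. Their sums were 14010 to 21320 CPM in unstimulated control, 13600 to 15680 CPM in stimulated control, 19910 to 21880 CPM in unstimulated Smad7-KO and 19080 to 21210 CPM in stimulated Smad7-KO libraries, with 5 of 8 higher in both Smad7-KO comparisons and none lower in edgeR, whereas limma called 2 of 8 between stimulated genotypes. The epicardial and mesothelial markers were lower in unstimulated Smad7-KO cells for 4 of 6 and with TGF-β1 for 2 of 6, with sums of 277 to 310 and 263 to 276 CPM in control and 175 to 212 and 168 to 183 CPM in Smad7-KO libraries. Smooth muscle and pericyte markers summed to 34.5 to 69.1 CPM in control and 38.3 to 48.1 CPM in Smad7-KO libraries, and cardiomyocyte markers to 28.1 to 77.7 and 17.9 to 24.3 CPM, with Nppa at or near 0. These cultures thus held transcripts used as markers of cells other than fibroblasts, and the part of each list in the levels of the 9 genes was not tested.

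**Figure D5:**
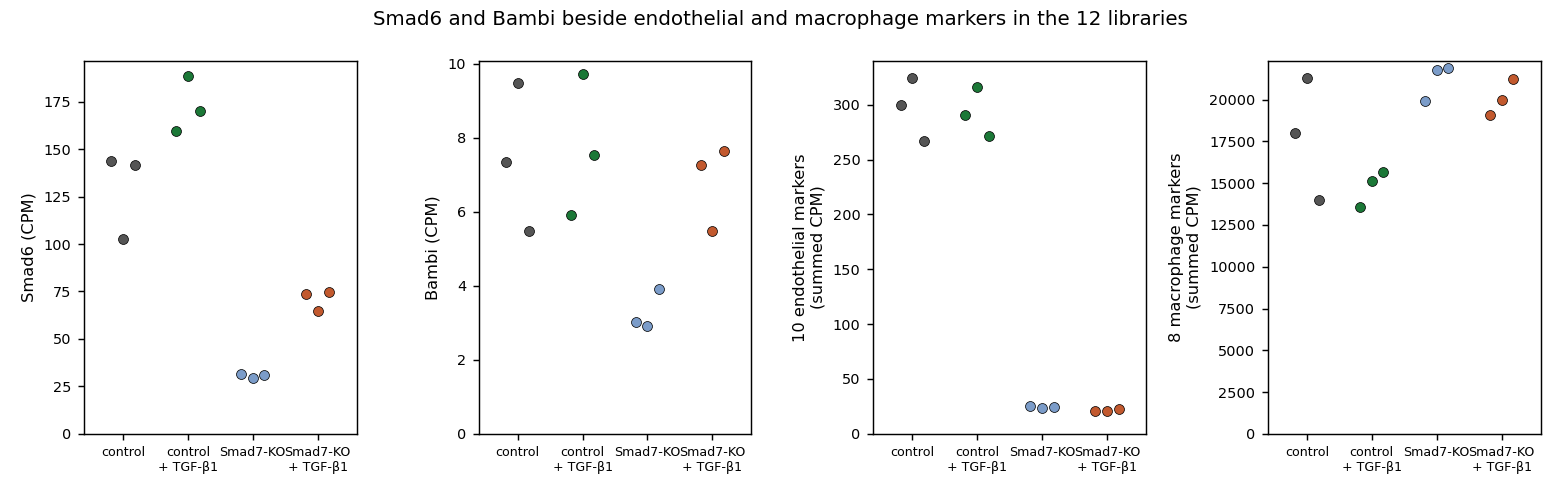
Smad6 and Bambi (CPM) and the summed CPM of 10 endothelial and 8 macrophage markers (y axes, each from 0) in the 12 libraries by condition (x axes). The endothelial sum is 267 to 324 CPM in control and 20.5 to 25.5 CPM in Smad7-KO libraries. Smad6 and Bambi rise with TGF-β1 within Smad7-KO, and the part of the markers' cells in these levels was not tested.

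The genes whose log2 CPM followed each of the 9 most closely over the 12 libraries were identified as a description, since the 12 points fall into 4 conditions and share the library effects given above. Comparisons were made with 9955 genes of an average log2 CPM of at least 3, or 9956 for Bambi. Smad7 was followed most closely by Angptl7 and Ckap4 (Pearson r = 0.994 and 0.99), Smad6 by Dact3 and Cd200 (r = 0.987 and 0.983) and Bambi by Gjb5 and Yaf2 (r = 0.95 and 0.946). Angptl7 had mean levels of 27.4 and 92.5 CPM in unstimulated and stimulated control and 5.04 and 28.2 CPM in unstimulated and stimulated Smad7-KO libraries. Pmepa1 was followed by Bhlhe40 and Plk3 (r = 0.992 for each), and Tgif1 by Tgfbi and Slc46a1 (r = 0.995 and 0.991). For Ski these were AI504432 and Clip2 (r = 0.994 and 0.992), for Skil Wnt5a and Rai14 (r = 0.991 and 0.989), for Smurf1 Nfic and Phactr4 (r = 0.99 and 0.986), and for Smurf2 Nol6 and Pcdh7 (r = 0.987 and 0.984).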

How the data were processed

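Libraries had been prepared with a NEBNext Ultra kit, and whether counting used strand is not given in the sources used here. Per the labels, the submitters' processing notes name TopHat2 2.0, HTSeq 0.6.1 and Cufflinks 2.1.1 and the builds GRCm38.p6 and mm10. What the authors deposited were unnormalised counts of reads for each gene and FPKM values. The FPKM equalled count over gene length and library total for all 35275 genes (relative tolerance 1e-06), so they carry no scaling between libraries beyond the total. Gene coordinates come from the count table and were read as GRCm38. None of the 9 genes overlapped another annotated gene.

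The count test was edgeR 4.0.16 under R 4.3.3 (filterByExpr with a minimum count of 10, TMM, robust quasi-likelihood fit of 4 conditions to all 12 libraries, Benjamini-Hochberg adjustment at 0.05). Standard errors are the coefficient over the root of its F statistic. The 95% intervals use the total degrees of freedom of the quasi-likelihood test, 11.48 to 11.59 for the negative regulators. With 3 libraries against 3, a two-sided exact permutation test cannot go below p = 0.1. Alternatives were DESeq2 1.42.0, limma 3.58.1 on log2(FPKM + 1) or log2(FPKM + 0.1) for genes with at least 1 FPKM in 3 libraries or without that filter, DESeq2's size factors, no filter, only the compared libraries, the replicate number as a block, removal of each library's gene length trend by loess (span 0.3), and leaving out each library. Leaving out both control libraries numbered 2 was added after the data were seen. The procedures were also run on simulated data, which gave each gene the same spread in all conditions. The spreads of these conditions differed, so no conclusion is drawn from that run. Per-sample columns left out numbered 0.

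The 9 genes, the pathway and marker lists, the motifs and the tests were chosen with earlier results of these data known. Besides the 9, the genes named are those differentially expressed in their list, at most 4 with the smallest adjusted p per list and comparison, and the 2 with the most similar profile; Junb, Col1a1, Fn1, Smad2, Smad3, Smad4, Ldlrad4, Fstl3, Tgfb3, Cldn5, Lyz2 and Nppa were added after their values were seen. Values of 1 listed gene are not reported here. Promoters are from RefSeq. Depth, 19056916 to 25371321 counts per library, leaves counting error small except for Bambi.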

Additional observations from a re-analysis of the deposited data

How the results depend on the processing

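The numbers of the 9 genes differentially expressed stayed within 1.5 times their values in the 4 pairwise comparisons under every alternative run. Leaving out each library gave 5 to 8 genes for TGF-β1 in control, 6 to 9 for TGF-β1 in Smad7-KO, 4 to 6 between genotypes in unstimulated cells, 2 to 3 with TGF-β1 and 0 to 1 for the difference of responses. That difference was called for 1 gene, Smad6, with DESeq2 on all libraries, without unstimulated control library 2, and without both control libraries numbered 2. Smad7 and Smad6 between genotypes, and Smad7, Pmepa1, Skil and Tgif1 with TGF-β1, were called under all alternatives.

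Several values changed sign. With the length trend removed, and with it removed together with the replicate block, the difference between genotypes in unstimulated cells became -0.13 and -0.13 for Ski, -0.35 and -0.34 for Skil and -0.10 and -0.088 for Smurf2, that in stimulated cells -0.0506 and -0.0508 for Skil and -0.10 and -0.10 for Smurf2, the response of Bambi in control -0.0698 and -0.0772, and the difference of responses of Tgif1 0.0333 and 0.0321. For Tgif1 the latter was also 0.0194 with DESeq2 and 0.021 with its size factors. Without both control libraries numbered 2 the values were -0.0571 for Ski and -0.0754 for Smurf2 between unstimulated genotypes, -0.0486 for Smurf2 and 0.0284 for Bambi between stimulated genotypes, and 0.0268 for the difference of responses of Smurf2. With single libraries left out, the unstimulated genotype difference ranged from -0.0485 to 0.37 for Ski, from -0.0392 to 0.29 for Skil and from -0.067 to 0.48 for Smurf2. The stimulated one ranged from -0.0435 to 0.17 for Smurf2 and from -0.34 to 0.0293 for Bambi, and the Bambi response in control from -0.15 to 0.27. The difference of responses ranged from -0.10 to 0.33 for Ski, from -0.11 to 0.24 for Skil, from -0.46 to 0.0702 for Smurf1, from -0.43 to 0.14 for Smurf2 and from -0.047 to 0.0625 for Tgif1. Of the values whose sign changed only Skil in unstimulated cells with the length trend removed, with or without the block, was called, and the cause of the other changes was not tested.

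Over all tested genes the counts of calls ranged from 391 to 3449 for TGF-β1 in control (1268 in edgeR), from 985 to 3792 in Smad7-KO (1550), from 660 to 7979 between unstimulated genotypes (3907), from 883 to 4605 between stimulated genotypes (1962) and from 0 to 14 for the difference of responses (3). The extremes came from edgeR on only the compared libraries (391, 660 and 3792), leaving out unstimulated control library 3 (3449 and 7979), stimulated Smad7-KO library 1 (985) or stimulated control library 2 (883), and DESeq2 on the compared (4605) or all libraries (14). Between stimulated genotypes the share of calls that were higher was 44.1% with edgeR and 30% to 52.9% under the alternatives. Of the 18 ubiquitin and phosphatase regulators DESeq2 called 4 with TGF-β1 in control, 6 between unstimulated and 2 between stimulated genotypes, against 1, 3 and 0 in edgeR. Of the 8 BMP-responsive genes DESeq2 and limma each called 5 with TGF-β1 in control, against 2 in edgeR, and of the 19 receptor-level and extracellular regulators DESeq2 called 8 between stimulated genotypes, against 5. Of the endothelial markers DESeq2 and limma each called 3 with TGF-β1 in control, and DESeq2 2 in Smad7-KO, against 1 and 1. With the replicate block the counts of the 9 genes were 6, 7, 4, 2 and 0, as without it. Correlations of same-numbered deviations ran from -0.357 to 0.524, and libraries did not all correlate best with their own number. The value of 0.524 was between the control libraries numbered 2, whose longest genes both lay below their shortest. Deviations from a mean of 3 libraries depend on one another and carry the length trend, so these correlations cannot decide whether the libraries were paired. Precision is limited by 3 libraries a condition.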
